A study of Mus musculus with 10 samples.

Results

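The aminoacyl-tRNA synthetases are the enzymes that attach each amino acid to its transfer RNA. They were taken as every gene of the count table whose symbol is a single capital letter followed by "ars", with or without a final 1 or 2, together with Eprs, Farsa, Farsb and Tarsl2. The rule gave 38 of the 19178 genes in the table, 21 counted as cytosolic and 17 as mitochondrial, the latter being those whose symbol ends in 2. Tarsl2, a threonyl-tRNA synthetase-like gene of the cytosol, was counted with the cytosolic genes. So were Kars and Gars, which each make both the cytosolic and the mitochondrial enzyme from the same gene.

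Poly(A) RNA had been sequenced from mouse dendritic cells, which take up antigen and present it to T cells, at an age of 8 to 10 weeks. There were 5 libraries of Ptbp1-deficient cells and 5 of wild-type (WT) cells. The product of Ptbp1 binds pyrimidine-rich RNA and controls splicing, and the design asks which transcripts differ where it is deficient. The labels do not give the tissue, the strain, the sex, the part of Ptbp1 that was altered or the cells it was altered in. Nor do they say whether the libraries are from different mice, so the p-values rest on a spread between libraries that may be technical.

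Every protein made in a cell depends on these enzymes, because the ribosome accepts whatever amino acid the transfer RNA carries. Animal cells hold parallel sets. The cytosolic set serves the ribosomes that read nuclear messages, and the mitochondrial set is also encoded in the nucleus but is imported to serve the ribosomes of the organelle. Several cytosolic enzymes are held together by scaffold proteins in the multisynthetase complex, while the others are free. Genes of the cytosolic set are known targets of ATF4, the transcription factor of the amino acid response, and of MYC, and the tryptophan enzyme Wars is a classic interferon-gamma induced gene.

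Gene counts totalled 61759378 to 92697815 per deficient library and 50516163 to 66153758 per WT library. Each synthetase had at least 211 counts in every library, and all 38 passed the filter on low counts. Pars2 and Nars2, with minima of 211 and 230 counts, had the fewest, and counting error weighs most on them. Ptbp1 itself stood at 74.4 ± 1.08 CPM (counts scaled to a common library size by TMM; mean ± SD, n = 5) in the deficient libraries and at 294 ± 21.1 CPM in WT, and no deficient library reached a WT library. Of 12 dendritic cell markers, Itgax, Flt3, Cd74 and H2-Ab1 among them, 5 were called higher and 3 lower. They summed to 33589 to 36400 CPM in the deficient and 28732 to 34851 CPM in the WT libraries, with overlap. The sums were lowest in WT libraries 1 (28732 CPM) and 5 (28867 CPM). Over all genes tested, 21.9% were called higher and 23.1% lower. Marker lists of other cell types differed between the groups. Summed macrophage markers were 615 to 1247 CPM in the deficient and 1612 to 4229.8 CPM in the WT libraries, with 10 of 13 called lower, and they were highest in WT libraries 1 (2823 CPM) and 5 (4229.8 CPM). B cell markers (8 of 10 called lower) summed to 314 to 377 against 359 to 913 CPM, plasma cell markers (3 of 6 called lower) to 204 to 229.9 against 236 to 420.2 CPM, T cell markers (1 of 8 called lower) to 273 to 312 against 332 to 429 CPM, and NK cell markers (5 of 7 called higher) to 161 to 238 against 31.6 to 77.8 CPM. Neutrophil markers summed to 53.2 to 111 against 27.8 to 387 CPM and red cell markers to 14.0 to 74.1 against 24.6 to 88.4 CPM, with overlap in both. In bulk RNA, fewer cells of a type and less RNA per cell cannot be told apart.

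The cytosolic synthetases were higher in Ptbp1-deficient cells almost as a set, by a median of 1.26-fold. Of the 21 cytosolic genes 19 were called higher, none was called lower, and Vars and Farsa were not called. A gene was called at a Benjamini-Hochberg adjusted p under 0.05 over the 18248 genes tested, from edgeR's quasi-likelihood test. In this fit 21.9% of all genes tested were called higher and 23.1% lower. The median log2 fold change of the 21 cytosolic genes was 0.34, and each of the 21 estimates was above 0, from 0.0080 (Vars) to 0.72 (Aars), although Vars fell below 0 with upper-quartile scaling, and Vars, Farsa and Qars did in FPKM. The median over all genes tested was -0.026, and over the 9791 genes in the members' range of mean CPM it was 0.013, with 30.4% called higher and 26.2% lower. For 18 of the 21 cytosolic genes every deficient library lay above every WT library, a pattern seen in 17.2% of all genes tested. Without WT libraries 1 and 5, where the macrophage markers were highest, 19 cytosolic genes were again called higher, with a median of 0.29 (all genes: 21.7% higher and 22.3% lower). The macrophage sums of the remaining WT libraries, 1612 to 1668 CPM, were still above the 1247 CPM of the highest deficient library. Leaving out WT libraries 1 and 5 therefore did not remove the macrophage difference between the groups. The part that any of the marker lists plays in the cytosolic difference was not tested.

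The mitochondrial synthetases had no common direction. Of the 17 genes 3 were called higher (Iars2 and Sars2 among them), 5 were called lower (Wars2, Mars2, Cars2, Ears2 and Tars2) and 9 were not called. These counts were near the shares of all genes tested, 21.9% called higher and 23.1% lower. Their median log2 fold change was -0.021, with a range from -0.40 (Mars2) to 0.32 (Iars2), and 7 of the estimates were above 0 and 10 below. All 5 deficient libraries lay below all 5 WT libraries for 3 of the 17, against 16.2% of all genes tested, and above them for 2, against 17.2%. Without WT libraries 1 and 5 the calls were 2 higher and 5 lower, with a median of -0.072 (all genes: 21.7% higher and 22.3% lower). The difference between the cytosolic and the mitochondrial sets was not tested as such, since the members were chosen with earlier results of these data known.

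**Figure D1:**
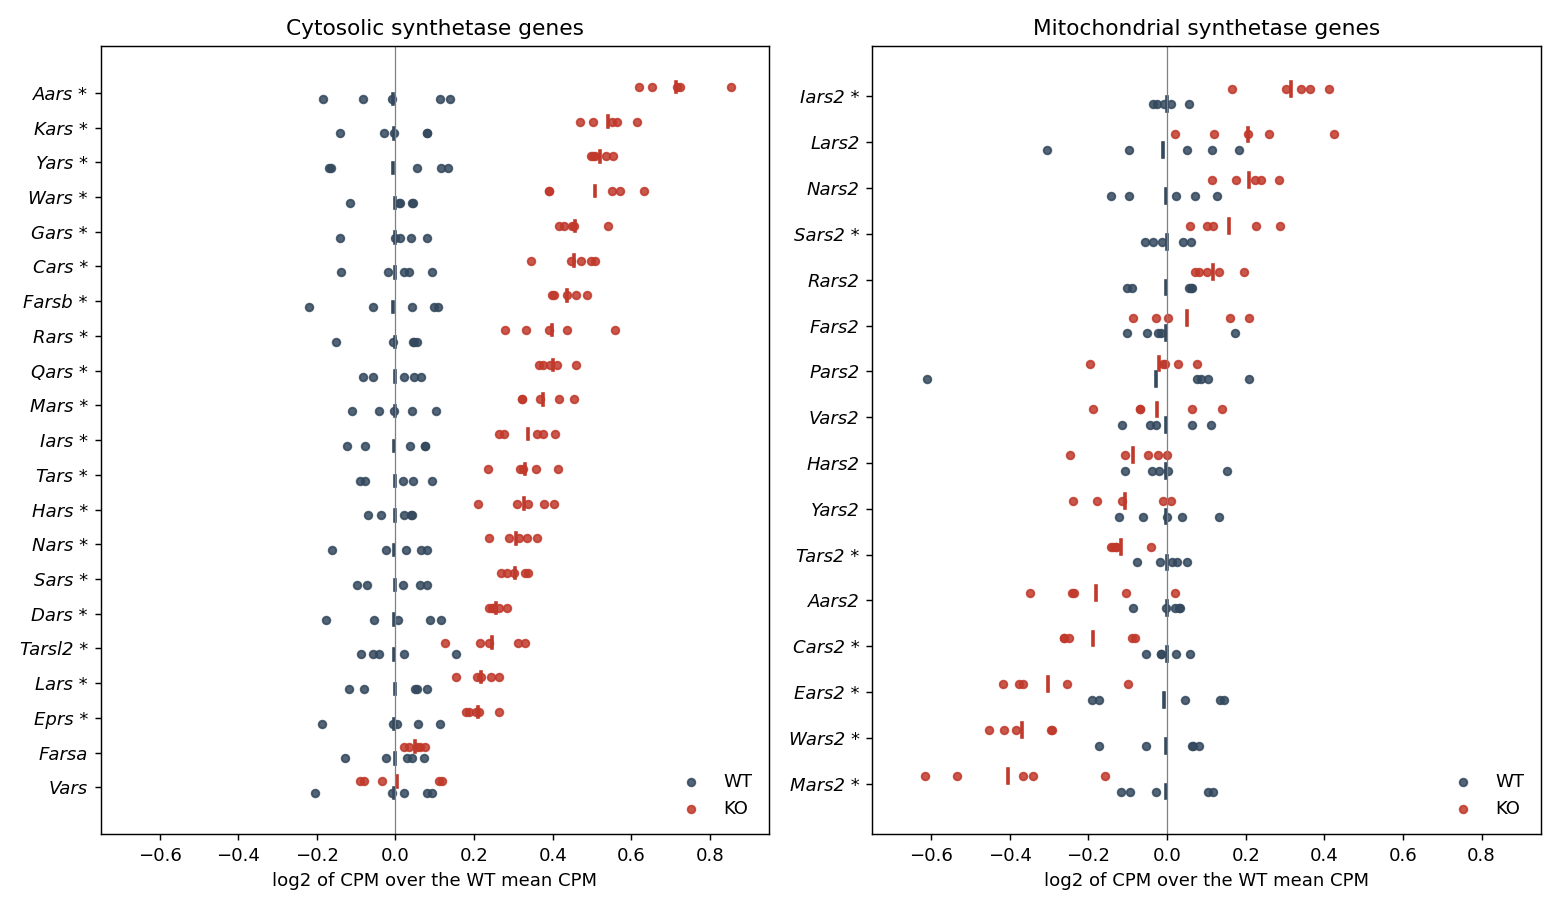
The plot gives, for 37 synthetase genes (vertical axis, cytosolic and mitochondrial genes apart), the log2 of its CPM in each library relative to the mean of the 5 WT libraries (horizontal axis), with 1 point per library coloured by genotype and a short bar for the group mean of these log2 values. An asterisk marks a called gene. The deficient points of 18 cytosolic genes lie wholly to the right of the WT points, while mitochondrial genes lie on both sides.

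Alanyl-tRNA synthetase, Aars, differed most among the members. The gene (ENSMUSG00000031960, chr8:111033144-111057664, plus strand, GRCm38) had 118, 115, 124, 136 and 124 CPM in deficient libraries 1 to 5 and 66.1, 74.7, 81.3, 82.8 and 71.1 CPM in WT libraries 1 to 5. Its means were 123 ± 7.81 and 75.2 ± 6.96 CPM (SD, n = 5 each), a 1.64-fold difference (log2 fold change 0.72 with SE 0.067 and adjusted p = 7.7e-06, edgeR with Benjamini-Hochberg adjustment). The lowest deficient library was well above the highest WT library, and WT libraries 1 and 5 were the lowest of the WT group. Its exons share 1326 bases with Exosc6 on the same strand, a gene not analysed here, and how reads of the shared part were assigned is not given.

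Lysyl-tRNA synthetase, Kars, and glycyl-tRNA synthetase, Gars, load lysine and glycine in both compartments from a single gene each. Kars (ENSMUSG00000031948, chr8:111993443-112011323, minus strand) had 111, 109, 120.1, 116 and 115 CPM in deficient libraries 1 to 5 and 71.2, 76.9, 83.0, 82.9 and 78.3 CPM in WT libraries 1 to 5. The means were 114 ± 4.49 and 78.4 ± 4.89 CPM, 1.46-fold (log2 fold change 0.54 with SE 0.049 and adjusted p = 6.2e-06, edgeR), and Kars had the smallest adjusted p of all 38 members. Gars (ENSMUSG00000029777, chr6:55038007-55079500, plus strand) had 77.3, 76.7, 83.5, 78.7 and 78.4 CPM in deficient libraries 1 to 5 and 52.0, 57.9, 57.4, 60.8 and 59.0 CPM in WT libraries 1 to 5. Its means were 78.9 ± 2.68 and 57.4 ± 3.27 CPM, 1.37-fold (log2 fold change 0.46 with SE 0.046 and adjusted p = 1.3e-05, edgeR). In neither gene did the groups overlap, so both members that supply the cytosol and the organelle were higher in the deficient libraries.

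Tryptophanyl-tRNA synthetase, Wars (ENSMUSG00000021266, chr12:108860030-108894174, minus strand), had 59.4, 59.4, 67.3, 70.2 and 66.4 CPM in deficient libraries 1 to 5 and 41.8, 45.6, 45.7, 46.6 and 46.7 CPM in WT libraries 1 to 5. The means were 64.5 ± 4.89 and 45.3 ± 2.01 CPM, 1.42-fold (log2 fold change 0.51 with SE 0.056 and adjusted p = 2.4e-05, edgeR). Its estimate was below those of Aars (1.64-fold), Kars (1.46-fold) and the tyrosine enzyme Yars (1.43-fold), and its spread was wider in the deficient group than in WT. Other genes known to respond to interferon gamma had larger estimates. Against 21.9% of all genes tested, 12 of 13 in a list of such genes were called higher, at a median log2 fold change of 1.19. They included the transcription factor Irf1 (384 ± 29.7 against 195 ± 9.11 CPM, log2 fold change 0.97), the peptide transporter subunit Tap1 (1.12) and the immunoproteasome subunit Psmb9 (1.20).

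Cysteinyl-tRNA synthetase, Cars (ENSMUSG00000010755, chr7:143557230-143600090, minus strand), had 37.0, 37.9, 33.9, 37.7 and 36.4 CPM in deficient libraries 1 to 5 and 24.2, 28.5, 27.3, 26.3 and 27.1 CPM in WT libraries 1 to 5. The means were 36.6 ± 1.62 and 26.7 ± 1.57 CPM, 1.37-fold (log2 fold change 0.45 with SE 0.052 and adjusted p = 3.2e-05, edgeR), without overlap. Yars had 56.1 ± 0.967 and 39.2 ± 4.00 CPM (log2 fold change 0.52 with SE 0.063 and adjusted p = 5.3e-05, edgeR), and its 5 deficient libraries lay within 55.3 to 57.5 CPM. Farsb, the beta subunit of phenylalanyl-tRNA synthetase, had 49.3 ± 1.30 and 36.4 ± 3.31 CPM (log2 fold change 0.44 with SE 0.060 and adjusted p = 1.2e-04, edgeR). Farsb exons share 248 bases with Sgpp2 on the opposite strand, so the Farsb values are uncertain to that extent. The partner of Farsb in the same tetramer, the alpha subunit Farsa, had 60.9 ± 0.908 and 58.8 ± 3.14 CPM with overlapping groups (adjusted p = 0.36, edgeR). The subunits of this enzyme therefore stood 1.35-fold and 1.04-fold relative to WT. Farsa, Farsb, Yars and, among the mitochondrial genes, Iars2 were singled out after their values were seen.

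The enzymes of the multisynthetase complex were all higher in counts, although Qars had the opposite sign in the FPKM values. The 8 genes are Eprs, Iars, Lars, Mars, Qars, Rars, Kars and Dars, and each was called higher with no overlap between the groups, at a median log2 fold change of 0.36. Among the 13 cytosolic genes outside the complex 11 were called higher, with a median of 0.33. Over all genes tested 21.9% were called higher, and in 17.2% every deficient library lay above every WT library. Glutaminyl-tRNA synthetase, Qars (ENSMUSG00000032604, chr9:108507706-108515941, plus strand), had 123, 119, 127, 120.0 and 122 CPM in deficient libraries 1 to 5 and 88.9, 87.4, 96.7, 95.5 and 93.9 CPM in WT libraries 1 to 5. The means were 122 ± 3.17 and 92.5 ± 4.12 CPM, 1.32-fold (log2 fold change 0.40 with SE 0.040 and adjusted p = 1.2e-05, edgeR). Isoleucyl-tRNA synthetase, Iars (ENSMUSG00000037851, chr13:49682100-49734267, plus strand), had 70.7, 77.9, 71.3, 75.6 and 76.4 CPM in deficient libraries 1 to 5 and 55.8, 62.0, 60.4, 62.0 and 54.0 CPM in WT libraries 1 to 5, and means of 74.4 ± 3.20 and 58.8 ± 3.70 CPM (log2 fold change 0.34 with SE 0.050 and adjusted p = 2.2e-04, edgeR).

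Eprs, which joins the glutamate and the proline enzyme in 1 polypeptide, showed the smallest difference of the 8 (ENSMUSG00000026615, chr1:185363044-185428360, plus strand). It had 103, 105, 106, 104 and 109 CPM in deficient libraries 1 to 5 and 80.2, 95, 91.6, 98.7 and 90.9 CPM in WT libraries 1 to 5. The means were 106 ± 2.40 and 91.3 ± 6.95 CPM, 1.16-fold (log2 fold change 0.21 with SE 0.052 and adjusted p = 0.0061, edgeR), and WT library 1 was the lowest of the 10. The other complex enzymes had log2 fold changes of 0.40 (Rars, arginine), 0.38 (Mars, methionine), 0.26 (Dars, aspartate) and 0.22 (Lars, leucine).

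The scaffold genes of the complex were higher as well. All 3 non-enzymatic components were called higher in counts, and 2 of them, without Eef1e1, in FPKM (all genes: 21.9% and 20.3% higher). Aimp1, which is also secreted as a cytokine precursor, had 67.1, 66.0, 69.9, 61.5 and 70.0 CPM in deficient libraries 1 to 5 and 42.1, 42.3, 49.7, 50.9 and 44.5 CPM in WT libraries 1 to 5, with means of 66.9 ± 3.49 and 45.9 ± 4.14 CPM (log2 fold change 0.54 with SE 0.063 and adjusted p = 3.7e-05, edgeR). Aimp2, the central scaffold, had 10.3 ± 0.424 against 8.73 ± 0.631 CPM (log2 fold change 0.24 with SE 0.071 and adjusted p = 0.016, edgeR). Eef1e1, which encodes the component known as AIMP3 or p18, had 22.5 ± 1.05 against 17.8 ± 2.90 CPM (log2 fold change 0.34 with SE 0.10 and adjusted p = 0.018, edgeR). Without deficient libraries 1 and 2, which had the highest sums of mitochondrial synthetases, only 1 of the 3 was called, and this was Aimp1.

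The remaining free cytosolic enzymes had smaller differences. The log2 fold changes were 0.33 for Hars (histidine), 0.33 for Tars (threonine), 0.31 for Nars (asparagine) and 0.30 for Sars (serine), all without overlap between the groups in counts. In FPKM the groups of Tars and Sars overlapped, and Sars was not called (adjusted p = 0.061, limma). Hars and Hars2 share 195 exonic bases on opposite strands, so their values are uncertain to that extent. Tarsl2 was the least abundant cytosolic gene, at 9.07 ± 0.509 and 7.65 ± 0.522 CPM (log2 fold change 0.25 with SE 0.075 and adjusted p = 0.019, edgeR), and its groups overlapped. Without deficient libraries 1 and 2 it was not called (adjusted p = 0.083, edgeR), the only cytosolic call that ended when libraries were left out, and in FPKM it was not called either (adjusted p = 0.17, limma). Tarsl2 exons share 120 bases with Tm2d3 on the same strand, and how reads of the shared part were assigned is not given.

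Valyl-tRNA synthetase, Vars, was the exception among abundant enzymes. Per unit of transcript length it was the most abundant member, with a mean over all libraries of 77.6 FPKM (fragments scaled by transcript length and library size, as deposited). The gene (ENSMUSG00000007029, chr17:35000987-35016322, plus strand) had 306, 305, 276, 265 and 267 CPM in deficient libraries 1 to 5 and 245, 280.4, 298, 301 and 286 CPM in WT libraries 1 to 5. The means were 284 ± 20.4 and 282 ± 22.5 CPM (log2 fold change 0.0080 with SE 0.065 and adjusted p = 0.93, edgeR). Deficient libraries 1 and 2 were the highest of the 10 and the other 3 were within the WT range, so the groups overlapped. The sign of the estimate changed when deficient library 1 or 2 or WT library 1 was left out.

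Called genes were found in both catalytic classes. The synthetases fall into 2 structural classes with unrelated catalytic folds. Of the 9 cytosolic class I genes 8 were called higher (median log2 fold change 0.40), and of the 11 cytosolic class II genes 10 were (median 0.33), Kars being counted in class II and the bifunctional Eprs in neither. Of the 9 mitochondrial class I genes 1 was called higher and 4 lower (median -0.10), and of the 8 class II genes 2 were called higher and 1 lower (median 0.018). For comparison, 21.9% of all genes tested were called higher and 23.1% lower. The difference between classes was not tested.

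Promoter letters were read for 26 of the 38 members, 12 cytosolic and 14 mitochondrial, from the promoter table made from RefSeq (assembly GRCm38.p6). Each window ran from 250 bases before to 50 bases after the gene's start and was searched on both strands. The C/EBP-ATF response element, the composite site that ATF4 binds with C/EBP partners, was searched as TGATGNAAT. It was found in 2 of the 12 cytosolic windows (Gars and Iars), in 0 of the 14 mitochondrial windows, and in 1.08% of all 27025 genes with a window. The matches are shown because they are the only ones in these windows. Capitals mark the match, which reads as the reverse complement of the searched letters, and each sequence is the plus strand of GRCm38.p6, 5′ to 3′, which is also the strand of the gene. The Gars stretch is chr6:55037751-55038000 and the Iars stretch is chr13:49682126-49682155.
Gars: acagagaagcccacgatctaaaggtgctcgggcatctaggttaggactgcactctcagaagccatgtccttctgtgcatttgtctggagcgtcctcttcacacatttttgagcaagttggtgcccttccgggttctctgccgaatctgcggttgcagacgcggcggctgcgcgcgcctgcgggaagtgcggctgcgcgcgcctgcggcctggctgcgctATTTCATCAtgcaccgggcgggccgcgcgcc
Iars: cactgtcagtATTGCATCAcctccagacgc

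In Gars the first base of the match lay at -31 from the RefSeq start, upstream of the first exon, and in Iars at 7, within the first exon. Gars and Iars had log2 fold changes of 0.46 and 0.34, the latter at the cytosolic median. The E-box CACGTG, the letters bound by MYC with MAX, was in 3 cytosolic windows (Farsb, Iars and Tars) and 1 mitochondrial window (Ears2), and in 8.09% of all genes with a window. Of the interferon elements, GAS (searched as TTCNNNGAA) was in the cytosolic window of Kars and the mitochondrial window of Nars2 (9.55% of all genes), and ISRE (searched as GAAA, any 2 bases and GAAA) was in that of Qars alone (3.99% of all genes). Aars, Wars and Cars were not among the windows read. A match is a run of letters, and whether any factor occupied it in these cells was not measured.

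Among the mitochondrial enzymes the fall was clearest for tryptophan and methionine. Wars2 (ENSMUSG00000004233, chr3:99141068-99239186, plus strand) had 9.63, 10.8, 9.90, 10.8 and 10.1 CPM in deficient libraries 1 to 5 and 13.8, 14.0, 11.7, 12.7 and 13.8 CPM in WT libraries 1 to 5. The means were 10.2 ± 0.513 and 13.2 ± 0.971 CPM, 0.776-fold (log2 fold change -0.37 with SE 0.070 and adjusted p = 0.0013, edgeR). Mars2 (ENSMUSG00000046994, chr1:55237177-55248470, plus strand) had 9.21, 8.12, 6.71, 7.10 and 7.97 CPM in deficient libraries 1 to 5 and 11.1, 9.48, 11.1, 10.1 and 9.64 CPM in WT libraries 1 to 5. Its means were 7.82 ± 0.974 and 10.3 ± 0.782 CPM, 0.761-fold (log2 fold change -0.40 with SE 0.096 and adjusted p = 0.0055, edgeR). In both genes the highest deficient library was below the lowest WT library, although for Mars2 the nearest libraries were close.

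Cars2, which loads cysteine in the organelle (ENSMUSG00000056228, chr8:11513977-11550783, minus strand), had 31.2, 31.4, 27.7, 27.9 and 27.7 CPM in deficient libraries 1 to 5 and 32.0, 32.8, 34.6, 33.7 and 32.8 CPM in WT libraries 1 to 5. The means were 29.2 ± 1.94 and 33.2 ± 0.990 CPM (log2 fold change -0.19 with SE 0.051 and adjusted p = 0.011, edgeR), and deficient libraries 1 and 2 came close to WT library 1 without reaching it. Cars2 shares 422 exonic bases with Naxd on the opposite strand, and since the use of strand in the counting is not given, reads of the pair may not have been told apart. Ears2, the glutamate enzyme (ENSMUSG00000030871, chr7:122037213-122067263, minus strand), had 12, 9.87, 10.8, 9.95 and 9.60 CPM in deficient libraries 1 to 5 and 11.2, 14.1, 14.2, 13.2 and 11.4 CPM in WT libraries 1 to 5. Its means were 10.4 ± 0.963 and 12.8 ± 1.43 CPM (log2 fold change -0.30 with SE 0.093 and adjusted p = 0.021, edgeR), with overlap, and it was not called in FPKM (adjusted p = 0.095, limma).

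Tars2, the threonine enzyme (ENSMUSG00000028107, chr3:95739976-95760206, minus strand), had 40.9, 43.6, 41.0, 41.1 and 40.7 CPM in deficient libraries 1 to 5 and 45.7, 46.5, 44.4, 45.3 and 42.6 CPM in WT libraries 1 to 5. The means were 41.4 ± 1.23 and 44.9 ± 1.5 CPM (log2 fold change -0.12 with SE 0.039 and adjusted p = 0.028, edgeR), the smallest difference of any called member. Deficient library 2 stood apart from the other 4 and was the one that reached into the WT range. Leaving out deficient library 1, 3 or 5 or WT library 1, 2 or 4 ended the call (adjusted p = 0.051 to 0.075, edgeR), and in FPKM the log2 fold change was -0.0068 (adjusted p = 0.94, limma).

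Iars2, which loads isoleucine (ENSMUSG00000026618, chr1:185284726-185329396, minus strand), was the mitochondrial enzyme with the largest rise. It had 55.3, 53.9, 56.2, 49.0 and 58.2 CPM in deficient libraries 1 to 5 and 45.4, 42.7, 43.5, 44.0 and 43.0 CPM in WT libraries 1 to 5. The means were 54.5 ± 3.44 and 43.7 ± 1.09 CPM (log2 fold change 0.32 with SE 0.047 and adjusted p = 2.2e-04, edgeR), without overlap. Its exons share 2034 bases with Rab3gap2 on the opposite strand, so this value is uncertain in the same way. Sars2 was also higher (19.5 ± 1.30 against 17.5 ± 0.603 CPM, adjusted p = 0.041, edgeR). Its groups overlapped, and it was not called without any 1 of 7 of the 10 libraries (adjusted p = 0.051 to 0.11, edgeR; deficient 1, 2 and 4, WT 1, 2, 3 and 4), nor in FPKM (adjusted p = 0.35, limma).

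The 9 mitochondrial genes that were not called had log2 fold changes from -0.18 (Aars2, adjusted p = 0.058, edgeR) to 0.21 (Lars2, adjusted p = 0.091, edgeR). Nars2 was the least abundant member per length, at 1.49 FPKM, and had 5.38, 5.57, 5.62, 5.16 and 5.80 CPM in deficient libraries 1 to 5 and 4.84, 4.46, 5.20, 5.01 and 4.31 CPM in WT libraries 1 to 5 (log2 fold change 0.21, adjusted p = 0.067, edgeR). Rars2 (0.12) was not called although every deficient library lay above every WT library. Yars2, Hars2, Fars2, Vars2 and Pars2 had estimates of -0.10, -0.083, 0.055, -0.021 and -0.019. Without deficient library 1, Aars2 was called lower (adjusted p = 0.011, edgeR), as it was without WT library 5 (0.043).

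Summed over genes in CPM, the cytosolic message pool was larger and the mitochondrial pool was not. The 21 cytosolic genes together made up 1855, 1841, 1868, 1862 and 1849 CPM in deficient libraries 1 to 5, and 1358, 1504, 1562, 1577 and 1479 CPM in WT libraries 1 to 5. The means were 1855 ± 10.5 and 1496 ± 86.9 CPM, and the spread was much the wider in WT, where library 1 was lowest. The 17 mitochondrial genes summed to 400.4 ± 16.1 CPM (385 to 424) in the deficient and 394 ± 10.8 CPM (382 to 408) in the WT libraries, which overlap. The ratio of the sums was 4.64 ± 0.197 in the deficient (4.38 to 4.83) and 3.79 ± 0.157 in the WT libraries (3.53 to 3.94), with no overlap. Vars alone supplied 284 and 282 CPM of these sums, so the rise in the cytosolic sum came from the other members. In summed FPKM the cytosolic genes stood at 579 ± 6.26 in the deficient and 506 ± 18.3 in the WT libraries. The 14 mitochondrial genes with FPKM had a lower mean in the deficient libraries, 114 ± 5.79 (108 to 122) against 123 ± 3.19 (119.6 to 128), and the ranges overlapped.

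**Figure D2:**
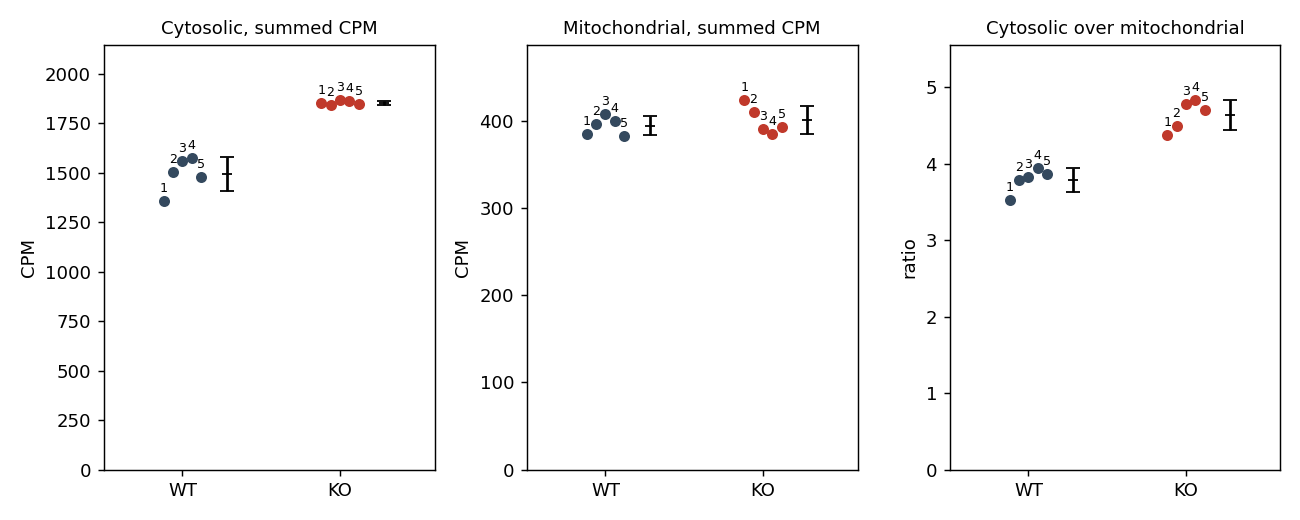
The panels show the summed CPM of the 21 cytosolic and 17 mitochondrial genes and the ratio of the sums (vertical axes) in each of the 10 libraries (numbered points), grouped by genotype, with the group mean and SD beside them. Cytosolic sums of 1841 to 1868 CPM in the deficient libraries all exceed the WT sums of 1358 to 1577 CPM, and the mitochondrial sums overlap.

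The libraries varied less around the cytosolic genes in the deficient group. The median coefficient of variation over the cytosolic genes was 3.93% in the deficient and 6.14% in the WT libraries, against 6.92% and 6.76% over the mitochondrial genes. WT library 1 was the lowest of its group for 14 of the 21 cytosolic genes and WT library 5 for 5, and these are the libraries with the highest macrophage markers. Deficient library 1 was the highest of its group for 8 of the 17 mitochondrial genes, and deficient library 4 the lowest for 6. The part of the macrophage markers in this spread was not tested.

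Setting each mitochondrial gene beside the cytosolic gene for the same amino acid gave 19 pairs, since Fars2, Tars2 and Eprs each enter 2 of them. Within each library the log2 ratio of cytosolic to mitochondrial CPM was taken with a prior count of 2. In 11 pairs the ratio was higher in every deficient than in every WT library, in 8 pairs the groups overlapped, and in none was it lower throughout. The median difference between group means was 0.36. In 6 pairs the cytosolic gene was called higher and the mitochondrial one lower, in 8 the cytosolic gene was called higher and the mitochondrial one was not called, and in 3 both were called higher. Single genes lay wholly above in 17.2% and wholly below in 16.2% of all genes tested. The share for ratios of other genes was not measured, so the 11 of 19 pairs have no background of their own. Pairs that share a gene are not independent, and no test was made over the pairs.

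The ratios moved most for alanine, tryptophan, methionine, cysteine and tyrosine. For Aars over Aars2 the mean log2 ratio was 2.78 in the deficient and 1.88 in the WT libraries. For Wars over Wars2 it was 2.65 and 1.78, with the cytosolic tryptophan enzyme called higher and the mitochondrial one lower. For Mars over Mars2 it was 3.15 and 2.38. For Cars over Cars2 it was 0.33 and -0.32, so that the cytosolic count passed from below to above the mitochondrial one. Ratios stayed within 0.03 of WT for isoleucine and leucine and for Farsa over Fars2, and differed by 0.031 for valine. In the isoleucine pair both genes were called higher.

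**Figure D3:**
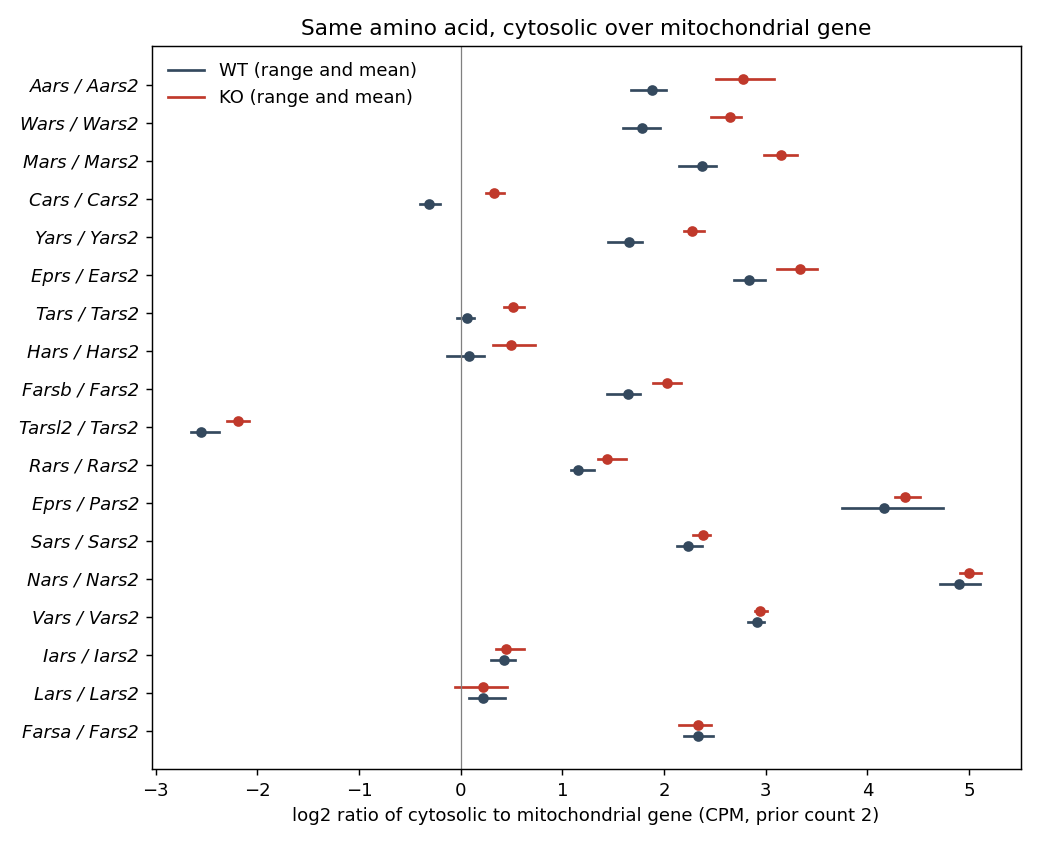
Each line of the plot is 1 of 18 cytosolic and mitochondrial pairs (vertical axis), and the horizontal axis is the log2 ratio of cytosolic to mitochondrial CPM, with a line for the range over the 5 libraries of a genotype and a point for their mean. In the alanine, tryptophan, methionine and cysteine pairs the deficient range lies wholly to the right of the WT range, with differences between group means of 0.90, 0.87, 0.78 and 0.64.

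Levels of different genes were compared per length, in the deposited FPKM, which held 35 of the members and not Mars2, Wars2 or Pars2. The median of the genes' mean FPKM was 20.6 for the cytosolic genes (2.77 to 77.6) and 7.35 for the mitochondrial genes (1.49 to 15.9). After Vars the most abundant were Nars (54.0 FPKM), Kars (43.3 FPKM) and Qars (41.3 FPKM). In 13 of the 16 pairs with FPKM the cytosolic gene was the more abundant in WT, and in 14 in the deficient group. The ratio of group means was larger in the deficient group in all 16, but by little in some. It was 1.384 in the deficient group and 1.383 in WT for isoleucine, 3.43 and 3.39 for Farsa over Fars2, and 4.93 and 4.85 for valine. Cars stood at 11.4 ± 0.274 FPKM below Cars2 at 16.8 ± 0.561 FPKM in WT, and at 14.8 ± 0.543 against 14.0 ± 1.18 FPKM in the deficient group. The cytosolic gene was above the mitochondrial one in 0 of 5 WT and 3 of 5 deficient libraries, so the pair did not separate beyond its spread in the latter. Tars and Tars2 gave the same counts of libraries (0 of 5 and 3 of 5), at 13.0 against 15.4 FPKM in WT and 14.9 against 15.3 FPKM in the deficient group.

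Estimates were mostly lower in the FPKM values than in the counts, so that higher genes differed less and several lower genes differed more. With limma on log2(FPKM + 1), 16 of the 21 cytosolic genes were called higher and none lower (median 0.23), while 20.3% of all 11968 genes were called higher and 27.2% lower. Of the 14 mitochondrial genes with FPKM 1 was called higher (Iars2) and 4 lower (Aars2, Cars2, Lars2 and Yars2; median -0.14). Of these 4 lower genes only Cars2 was also called lower in counts. The signed estimate was lower in FPKM than in counts for 32 of 35 members, by a median of 0.10 on the log2 scale, and the median of all genes in both tables differed by -0.069. A set of 5 members had opposite signs in the tables: Qars, Lars2, Vars, Farsa and Fars2. Qars had 39.2 ± 4.95 FPKM in the deficient and 43.3 ± 2.44 FPKM in the WT group (log2 fold change -0.15, adjusted p = 0.16, limma), against 1.32-fold higher in counts. Lars2 had 3.18 ± 0.382 and 4.05 ± 0.368 FPKM (log2 fold change -0.28, adjusted p = 0.014, limma), against 0.21 in counts. Aars, Kars and Wars kept their direction and call, at 21.5 ± 2.04 against 14.1 ± 2.21, 50.5 ± 1.26 against 36.1 ± 1.17 and 13.5 ± 1.64 against 9.50 ± 0.594 FPKM.

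**Figure D4:**
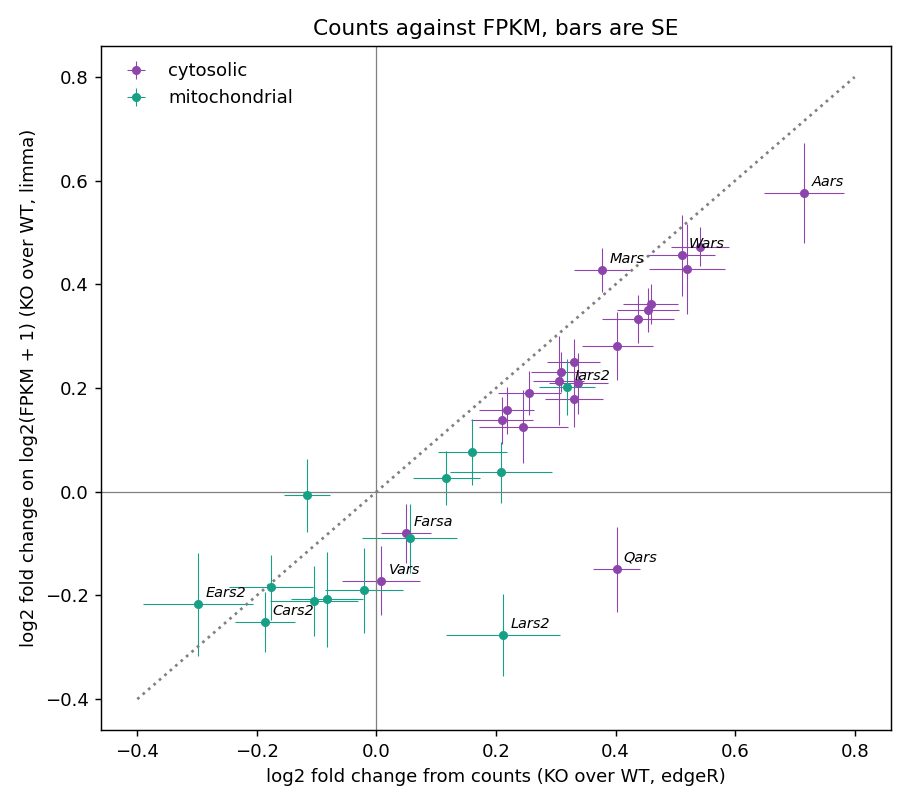
The scatter plot sets the log2 fold change of 34 synthetases in counts (horizontal axis, edgeR) against that in log2(FPKM + 1) (vertical axis, limma), with cytosolic and mitochondrial genes in different colours and bars for the SE. Most points lie below the dotted line of equality, and Qars and Lars2 lie farthest from it.

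Genes that act beside the synthetases did not all follow them. As background for the lists, 21.9% of all genes tested were called higher and 23.1% lower. Among the proofreading factors that remove wrongly attached amino acids or free stalled peptides from tRNA, 4 of 7 were called higher and 1 lower (median log2 fold change 0.30). The higher genes included the peptidyl-tRNA hydrolase family members Ptrhd1 (0.60) and Ptrh2 (0.30) and the D-aminoacyl-tRNA deacylase Dtd2 (0.47), and the lower gene was Prorsd1 (-0.20). Among 9 genes of cytosolic elongation, the step that uses the charged tRNA, 5 were called higher and 1 lower (median 0.26). Eef1a1, which carries charged tRNA to the ribosome, had 8138 ± 473 against 6570.5 ± 376 CPM (0.31), and Eef1b2 (0.39) and Eif5a (0.30) were higher. The called-lower gene was Eef2k (-0.52), the kinase that restrains elongation factor 2, which was not called in FPKM.

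Mitochondrial translation factors had estimates on both sides of 0. Of 14 measured 5 were called higher and 1 lower, at a median log2 fold change of -0.019 (all genes: 21.9% higher and 23.1% lower). Qrsl1 (21.7 ± 1.20 against 16.8 ± 0.384 CPM, 0.37) is a subunit of the amidotransferase that makes glutaminyl-tRNA in the organelle, in place of a glutamine enzyme of its own. It was called higher while Ears2, which makes the substrate of that reaction, was called lower. The elongation factors Gfm1 (0.32) and Tsfm (0.20) were higher and Guf1 (-0.30) lower, although Tsfm was not called in FPKM (log2 fold change 0.082, adjusted p = 0.22, limma). Leaving out any of 7 libraries (deficient 1, 2, 3 or 5, WT 1, 2 or 5) left 3 called higher, and leaving out deficient library 1 or 5 left 2 called lower.

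The selenocysteine route, which builds its amino acid on tRNA after Sars has charged it with serine, had 2 of 6 genes called higher and 2 lower. The background for each list here was 21.9% called higher and 23.1% lower among all genes tested. Eefsec, the elongation factor for selenocysteine (0.77), and Sephs1 (0.33) were higher, and Secisbp2 (-0.19) and the kinase Pstk (-0.25) were lower. Pstk was not called without deficient library 3, 4 or 5 or WT library 1, 4 or 5, when 1 gene was called lower. Of 18 genes of tRNA export and maturation 6 were called higher and 3 lower (median 0.077), among them the ligase Rtcb (0.36) and Pop7 (0.27) as higher and Tsen34 (-0.30) and Elac1 (-0.30) as lower. Without WT libraries 1 and 5 the number called lower was 5. Mitochondrial DNA replication and transcription genes gave 2 higher (Lrpprc 0.24, Slirp 0.43) and 3 lower of 11, with Tfb2m (-0.26) and Polg (-0.15) among the lower. Only 1 was called lower without deficient library 4 or WT library 1. Polg was not called without deficient library 4 or 5 or WT library 1, 4 or 5 (adjusted p = 0.060 to 0.079, edgeR). Nor was it called without WT libraries 1 and 5 together (adjusted p = 0.15, edgeR).

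The regulators known for synthetase genes were measured as transcripts. Atf4, the factor of the amino acid response, had 264, 271, 255, 244 and 256 CPM in deficient libraries 1 to 5 and 197, 291, 281, 294 and 338 CPM in WT libraries 1 to 5, and its groups overlapped (258 ± 10.3 against 280.2 ± 51.7 CPM; log2 fold change -0.12 with SE 0.11 and adjusted p = 0.41, edgeR). Without WT library 1, the lowest for Atf4, the gene was called lower (log2 fold change -0.21, adjusted p = 0.011, edgeR). It was also called lower without WT libraries 1 and 5 (-0.16, adjusted p = 0.0089, edgeR). A list of 35 genes outside the synthetases held Atf4 itself and its known targets and partners. Of these 35 genes 8 were called higher and 9 lower, at a median log2 fold change of 0.021. The serine pathway enzyme Psat1 (29.7 ± 0.995 against 18.6 ± 2.27 CPM, 0.68), the mitochondrial folate enzyme Mthfd2 (0.55) and the proline pathway enzyme Aldh18a1 (0.42) were higher. The amino acid transporter Slc38a2 (292 ± 39.2 against 442 ± 14.8 CPM, -0.60) was lower. The counts of 8 higher and 9 lower of 35 were near the background of 21.9% higher and 23.1% lower among all genes tested.

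Among 9 genes of the eIF2 step upstream of Atf4 (kinases, their regulators, phosphatase subunits and eIF2 alpha), 3 were called higher and 5 lower (median -0.15). The shares over all genes tested were 21.9% higher and 23.1% lower. Eif2ak2, the double-stranded RNA sensor PKR and itself interferon inducible, had 114 ± 9.43 against 58.3 ± 1.56 CPM (log2 fold change 0.96 with SE 0.055 and adjusted p = 3.0e-07, edgeR). Eif2ak3, the endoplasmic reticulum kinase PERK, was lower (-0.65), as was Impact (-0.20), an inhibitor of the kinase that senses uncharged tRNA. Eif2s1, the alpha subunit of eIF2 that these kinases phosphorylate, was higher (0.45). Myc had 30.6, 33.6, 32.0, 29.1 and 32.7 CPM in deficient libraries 1 to 5 and 25.4, 29.5, 28.9, 34.5 and 37.7 CPM in WT libraries 1 to 5, with overlapping groups (31.6 ± 1.78 against 31.2 ± 4.87 CPM, adjusted p = 0.89, edgeR). In the MYC network of 9 genes 3 were called higher and 4 lower, against 21.9% and 23.1% of all genes tested. Mycl (0.40), Max (0.28) and Mxd3 (1.13) were higher and Mxd4 (-0.55) was among the lower. Max was not called in FPKM (adjusted p = 0.060, limma).

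**Figure D5:**
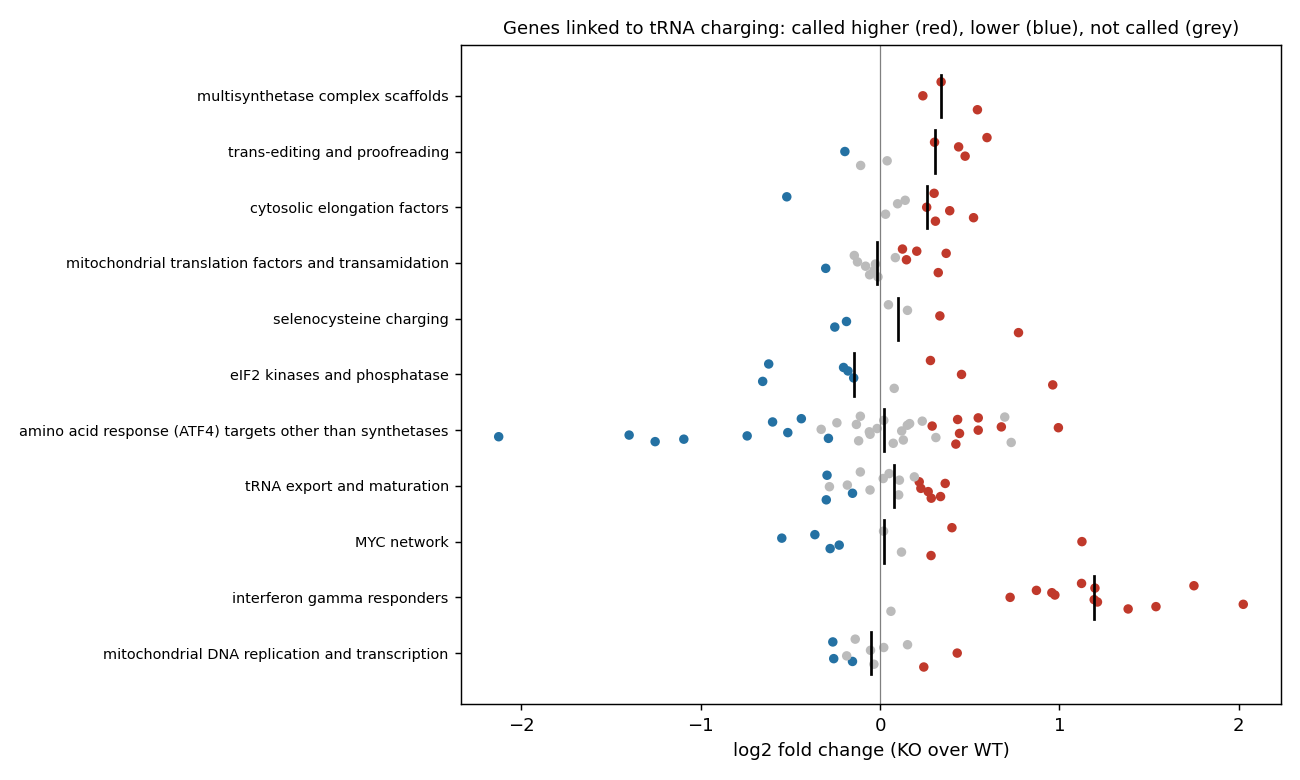
Each line of the plot is 1 list of genes (vertical axis) with the log2 fold change of every tested member as a point (horizontal axis, edgeR on counts), red where called higher, blue where called lower and grey where not called, and the list's median as a black bar. The complex scaffolds lie to the right of 0, the mitochondrial translation factors and the ATF4 list lie on both sides, and the interferon gamma responders reach the largest values.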

How the data were processed

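Poly(A) RNA of 5 Ptbp1-deficient and 5 WT dendritic cell samples was sequenced as paired 150 bp reads, per the labels' protocols. The authors deposited raw counts per gene and a table of FPKM. The submitters' processing notes name HISAT2, StringTie and DESeq2 without versions and the human build GRCh38, although the gene identifiers are mouse. How reads were counted, whether strand was used, and which tool made the FPKM was not given in the sources used here. No gene of the count table has under 2 counts in any library, so rarer genes are missing from it. Reads assigned to genes were 69.4% to 74.1% of a library's counts. The remainder, mainly reads outside genes (17.2% to 22.2%), multiply mapped reads (4.51% to 5.08%) and ambiguous reads (1.78% to 1.94%), stayed out of all tests. The deposited FPKM table lists 11968 identifiers, none under 1.00 FPKM, after 10 duplicates were added up.

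Symbols and coordinates came from GENCODE M21 (GRCm38), which matched 19049 identifiers. With edgeR 4.0.16 (limma 3.58.1, R 4.3.3), genes were filtered by filterByExpr and scaled by TMM, and the genotypes were compared by the quasi-likelihood test with no other term and Benjamini-Hochberg adjustment over 18248 genes, at a threshold of 0.05. The SE is the absolute log2 fold change divided by the square root of the F statistic. No pair of libraries agreed within sampling noise, and libraries of a group were not equally alike. The chi-square per degree of freedom was 5.13 between deficient libraries 1 and 2, and 31.8 to 51.7 between these and deficient libraries 3 to 5. Among WT libraries 2 to 4 it was 8.20 to 9.83, and between these and WT library 1 or 5 it was 36.1 to 96.7. Alternatives were RLE and upper-quartile scaling, DESeq2 1.42.0, limma-voom, no filter, at least 1 CPM in 5 libraries, a block for the replicate number, limma on log2 FPKM (pseudocount 1 or 0.1), a threshold of 0.01, and leaving out libraries. The fit was tested on simulated counts.

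The members and lists were chosen with earlier results of these data known, and counts per list under the alternatives were added after seeing the data. Full values are given for up to 6 higher and 6 lower members with the smallest adjusted p, the members with the highest and lowest mean FPKM, and Wars, Iars, Kars, Gars and Eprs. Of each list, up to 4 called genes with the smallest adjusted p are named, and Atf4, Myc and the scaffold genes always. Some results for single genes, and 1 sequence, are not reported here, and 1 member is in the counts but in no plot of single genes.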

Additional observations from a re-analysis of the deposited data

Results flagged for a closer look

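Within groups of 5, a library was picked out where its gap to the nearest other library was large beside the whole range of its group, a criterion that chance meets in about 1 of 20 groups. It was met in 9 of 166 groups examined, 3 of them among the 76 of the synthetases. Pars2 was 3.37 CPM in WT library 5 and 5.43 to 5.95 CPM in the other WT libraries. Tars2 was 43.6 CPM in deficient library 2 and 40.7 to 41.1 CPM in the others, and this library alone reached the WT range. Wars was 41.8 CPM in WT library 1 and 45.6 to 46.7 CPM in the others.

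Among the genes that act beside the synthetases, WT library 1 was low for Eif5a (331 CPM against 391 to 409.6) and Eif2s1 (62.9 CPM against 71.8 to 74.6), and WT library 5 was low for Tsfm (11.7 CPM against 13.0 to 13.3). Deficient library 1 was high for Eef1e1 (24.3 CPM against 21.8 to 22.4) and low for Impact (49.4 CPM against 52.8 to 53.5), and deficient library 3 was high for Tsen34 (29.3 CPM against 26 to 26.9).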

How the results depend on the processing

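Of 830 synthetase results recomputed over 22 settings, 758 kept direction and call, 35 lost and 14 gained the call, and 23 changed sign; 21 members (16 cytosolic, 5 mitochondrial) changed in no setting. The cytosolic calls were 19 higher and 0 lower without each library in turn (all genes: 19.3% to 22.5% higher), with a median log2 fold change of 0.32 to 0.36, and 18 higher without deficient libraries 1 and 2. With FPKM the cytosolic median was 0.23 with either pseudocount. The mitochondrial median ranged from -0.082 (without WT library 5) to 0.014 (without deficient library 4, a change of sign). It was -0.11 without deficient libraries 1 and 2, and -0.15 and -0.14 in FPKM with pseudocounts of 0.1 and 1, where 1 mitochondrial gene was called higher. At an adjusted p under 0.01, 2 synthetases were called lower, both mitochondrial (15.5% of all genes). Other signs changed in FPKM with pseudocounts of 0.1 and 1: Fars2 (-0.10, -0.090), Farsa (-0.084, -0.080), Lars2 (-0.34, -0.28), Qars (-0.15, -0.15), Vars (-0.17, -0.17) and Myc (-0.10, -0.10). With upper-quartile scaling Vars was -0.034 and Myc -0.021. Vars was -0.070 without deficient libraries 1 and 2 and -0.049 without WT libraries 1 and 5. Leaving out single libraries gave -0.030 to 0.033 for Vars, -0.066 to 0.014 for Vars2, -0.14 to 0.047 for Pars2 and -0.037 to 0.098 for Myc. Pars2 was 0.0025 with limma-voom and 0.0031 with the replicate block. The cause was not tested. Replicate numbers did not pair the samples: same-numbered deviations correlated at -0.096 to 0.114, and only replicate 5 correlated best with its own number. With the replicate number as a block 19 cytosolic genes were called higher and 0 lower, and 2 mitochondrial genes higher and 5 lower (all genes: 20.6% higher, 20.7% lower). In counts simulated for this comparison (18248 genes), edgeR called 8 of 50 genes changed 1.25-fold and 32 of 50 changed 1.5-fold. Only 50 genes were changed at each of the folds 1.25, 1.5, 2 and 4, while 45.0% of genes were called in the data. The adjusted threshold was therefore stricter in the simulation, and its recovery does not carry over to the data. A small difference that was not called is still not shown to be absent.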
